A study of Mus musculus with 16 samples.

Results

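The genes described here encode the subunits, activators and assembly factors of the proteasome. They were taken by symbol, as every gene named Psma, Psmb, Psmc, Psmd, Psme, Psmf or Psmg followed by a number. This gave 48 of the 53700 genes counted, and the set was chosen with earlier results of these data known. The libraries were bulk RNA sequencing of microglia, the resident macrophages of the brain, taken from whole brains by flow cytometry, in a gate for CD11b-high, CD45-intermediate, Ly6c-negative live cells. Mice labelled as Ercc1 knockouts (KO) were compared with wild-type controls (WT) at 6 and 12 weeks of age, with 4 libraries in each of the 4 groups, all on a C57Bl6J/FVB cross. ERCC1 is part of a nuclease that cuts damaged DNA during repair, and mice that lack it age fast. Each 6-week group held 2 male and 2 female libraries by label, and each 12-week group held 3 male and 1 female. The labels do not say whether each library is 1 mouse, so the p-values measure the spread between these libraries, which may be partly technical, and 1 title of the 12-week WT group carries the double number 5_6.

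The proteasome is the large protease that degrades ubiquitin-tagged proteins. Its barrel-shaped core is built of alpha rings, which gate entry, and beta rings, in which PSMB5, PSMB6 and PSMB7 cut peptide bonds. A regulatory cap of ATPases and non-ATPase subunits recognises, unfolds and feeds in the substrate. Interferons induce the immunoproteasome, in which PSMB8, PSMB9 and PSMB10 take the places of PSMB5, PSMB6 and PSMB7, and the cap-like activator PA28, made of PSME1 and PSME2, and these forms shape the peptides that MHC class I molecules present. In macrophages, immune subunits are present without infection and increase with interferon.

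Psme2 needs to be read with its sequence, because a near-identical gene, Psme2b, competes for its reads. The coding sequences of the annotated transcripts were identical at 712 of 717 positions (99.3%), with one unbroken identical run of 311 bases. The stretch below, coding bases 484 to 543 of Psme2 in GENCODE vM21, holds 3 of the 5 differing bases, which are in capitals, and shows how little of a read can tell these genes apart.
Psme2: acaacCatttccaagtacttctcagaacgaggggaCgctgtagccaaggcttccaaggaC
Psme2b: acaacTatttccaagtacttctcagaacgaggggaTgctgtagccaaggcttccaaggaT
Psma5, an alpha-ring subunit, stands in the same position, with 715 of 723 coding positions (98.9%) identical to the copy Psma5-ps. Of all 50-base stretches of the annotated coding sequence, the share found in another gene's transcript was 69.5% for Psme2, 21.1% for Psme1, 11.8% for Psmb8 and 0% for Psmb9 and Psmb10. Among the 48 members, 27 shared no such stretch with another gene and 6 shared over 50% of theirs (Psma3, Psma5, Psmb3, Psmb5, Psme2 and Psmg3). How multi-mapping reads and strand were treated in counting is not given in the sources used here, so counts of these genes, and of the 13 members whose exons overlap those of another gene (498 bases of the antisense Gm20496 for Psmb8), are uncertain to that extent.

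Total counts per library ran from 7882182 to 22142972. Ercc1 lay between 13.5 and 30.6 CPM, counts scaled to library size by the trimmed mean of M values, at 6 weeks in WT and between 2.82 and 4.54 in KO. At 12 weeks it lay between 7.46 and 49.2 CPM in WT and between 0.425 and 6.77 in KO, so the groups did not overlap at either age, although edgeR's adjusted p was 0.209 and 0.105. All 10 microglial markers were detected in every group, and at 6 weeks they summed to 71753 to 78529 CPM in WT and 59813 to 70249 in KO, at 12 weeks to 65105 to 72738 in WT and 51359 to 54005 in KO. A list of 7 monocyte genes summed to 8.62 to 20.2, 22.7 to 43.0, 1.19 to 12.7 and 26.7 to 82.7 CPM in the same order, with its defining markers Ly6c2 and Chil3 at 0 counts in 6-week KO and in both 12-week groups. A list of 10 genes of border-associated macrophages summed to 258 to 326, 314 to 499, 227 to 271 and 280 to 371 CPM in the same order of groups. By gene, 9 of these 10 had a log2 change above 0 in KO at each age. The share of all genes was 48.2% at 6 weeks and 48% at 12 weeks. The median of the 10 was 1.64 at 6 weeks and 2.14 at 12 weeks. At 12 weeks 7 lay wholly above WT (5.13% of all genes), 1 lay wholly below (3.08%) and 1 was called higher (2.03%). The part of these cell types in the results below was not tested, and in bulk samples a change in the number of cells of a type and a change in RNA per cell cannot be told apart. The 12-week WT library 5_6, labelled male, held both Xist (340 CPM) and Y-linked transcripts (109 CPM), and WT libraries 3 and 8 held the lowest and highest Ercc1 of their group. Refits that left out these libraries were examined for Psmb5 to Psmb10, Psme1, Psme2, Psme4 and Psmd5. Where that ended a call or turned a sign of a 12-week change, the value without them is given. Psma3, Psme2b and the named interferon and class I genes were not checked in this way.

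Proteasome genes were expressed in every library. Together they took between 0.344 and 0.369% of all counts in WT and between 0.361 and 0.397% in KO at 6 weeks, and between 0.394 and 0.445% in WT and between 0.409 and 0.453% in KO at 12 weeks. Of the 48 members, 47 had counts and the same number passed the filter on low counts. The exception was Psmb11, the beta subunit of the thymus proteasome, with 0 counts in all 16 libraries. Per kilobase of merged exon, the highest mean levels in 6-week WT belonged to Psmc5, an ATPase of the cap (73.5 CPM per kb), Psmb6 (71.2) and Psmb2 (70.3). The immune subunits in these WT microglia stood at 59.2 CPM per kb for Psmb10, 45.7 for Psmb8 and 13.1 for Psmb9, and the subunits they replace stood at 14.2 for Psmb7, 16.5 for Psmb5 and 71.2 for Psmb6. The lowest level among the members with counts was that of Psmg3, a chaperone of core assembly, at 2.6 CPM per kb, next to Psma8, the testis form of an alpha subunit, at 2.72. Merged exons hold every annotated exon of a gene and can be longer than the transcript expressed. They held 899 bases for Psmb5 and 3660 for Psmb9, whose coding sequences are 792 and 657 bases. The order of genes per kilobase, immune against replaced subunits included, therefore depends in part on the annotation and does not give relative amounts.

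Knockout microglia at 12 weeks had more PA28 and more Psmb8 transcript than their WT controls. Psme1 was 1.90-fold higher, Psme2 1.87-fold and Psmb8 1.56-fold. These 3 of the 47 members tested rose and none fell in edgeR's quasi-likelihood test with Benjamini-Hochberg adjustment over all 17090 genes tested, against 2.98% of all genes called, 2.03% higher and 0.954% lower. All 3 belong to the 5 interferon-induced members; none of the other 42 members tested was called. Fitted on the 12-week groups alone, Psme1 kept its call (adjusted p = 0.0476), while Psmb8 (0.207) and Psme2 (0.138) missed the threshold.

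**Figure D1:**
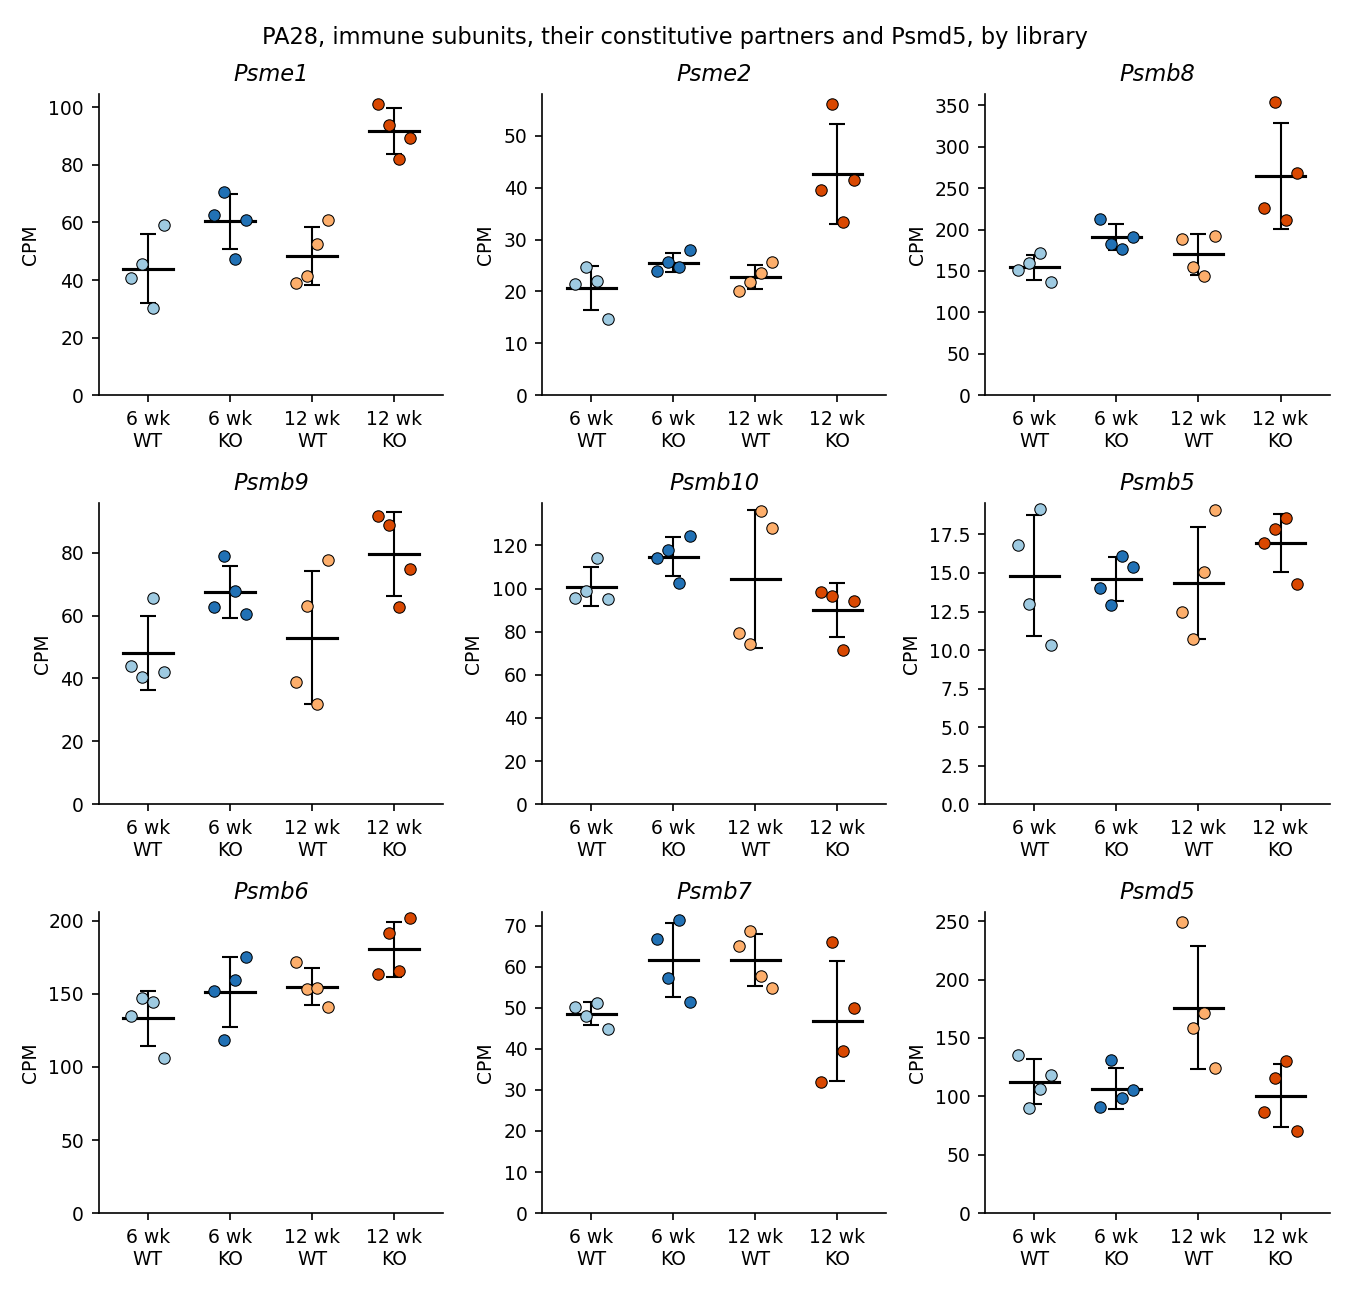
CPM (vertical axis, from 0) of Psme1, Psme2, Psmb8, Psmb9, Psmb10, Psmb5, Psmb6, Psmb7 and Psmd5 in the 4 groups. Points are libraries, long bars group means and whiskers ± SD over 4 libraries; all 4 KO libraries of 12 weeks lie above all 4 WT libraries of that age for Psme1, Psme2 and Psmb8, but not for Psmb9 or Psmb10.

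Psme1 encodes the alpha chain of PA28, the ring that docks on the core's ends and opens them without ATP. At 12 weeks its levels in KO replicates 1 to 4 were 101, 94.0, 82.1 and 89.3 CPM, and in WT replicates 3, 4, 5_6 and 8 they were 38.9, 41.4, 52.4 and 60.8 CPM. Every KO library was above every WT library, and the log2 change was 0.93 ± 0.19 (SE, adjusted p = 0.0135). The call held when any 1 of the 8 libraries of that age was left out, with adjusted p between 0.011 and 0.0432, and it was lost without both WT libraries 3 and 8 (log2 change 1.04, adjusted p = 0.051). At 6 weeks Psme1 stood at 62.7, 70.5, 47.5 and 60.8 CPM in KO and at 40.9, 45.7, 30.1 and 59.2 CPM in WT. Those groups overlapped, and the log2 change of 0.47 ± 0.19 missed the threshold (adjusted p = 0.522).

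Psme2 encodes the beta chain of the same ring. Its 12-week KO libraries held 39.5, 56.1, 33.5 and 41.5 CPM against 20.1, 21.7, 23.6 and 25.6 CPM in WT. The groups were again separate, with replicate 2 the highest, and the log2 change was 0.90 ± 0.22 (adjusted p = 0.0352). This call was the least stable of the 3: it passed in 2 of the 8 refits that left out 1 library, those without WT replicate 8 or KO replicate 3, and the adjusted p ran from 0.0263 to 0.121, the last without KO replicate 2, where the log2 change was 0.76. Without WT libraries 3 and 8 the log2 change was 0.93 with adjusted p = 0.158. It was 0.89 without WT replicate 3 alone (adjusted p = 0.0875) and 0.94 without WT replicate 5_6 (adjusted p = 0.0703). The 6-week values were 23.9, 25.7, 24.7 and 28.0 CPM in KO and 21.5, 24.8, 22.0 and 14.7 CPM in WT, which overlapped (log2 change 0.30 ± 0.22, adjusted p = 0.948).

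Most reads of the pair were assigned to the copy. Psme2b stood at 194, 268, 167 and 201 CPM in 12-week KO and at 123, 130, 135 and 157 CPM in 12-week WT, and it rose by a log2 change of 0.61 ± 0.14 (adjusted p = 0.0226). Psme2 took 16.7 to 17.3% of the pair's counts in 12-week KO and 14.1 to 14.9% in 12-week WT, ranges that did not overlap, while at 6 weeks the shares were 13.3 to 15.0% in KO and 12.2 to 15.9% in WT. With the counts of the pair summed, the log2 change at 12 weeks was 0.66 with adjusted p = 0.0147. Psme2 as counted, Psme2b as counted and their sum were thus all higher in KO, by different amounts. Most counts in the sum are those of Psme2b, so the sum does not give the direction of Psme2 alone. Other divisions of the reads between the pair were not tested.

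**Figure D2:**
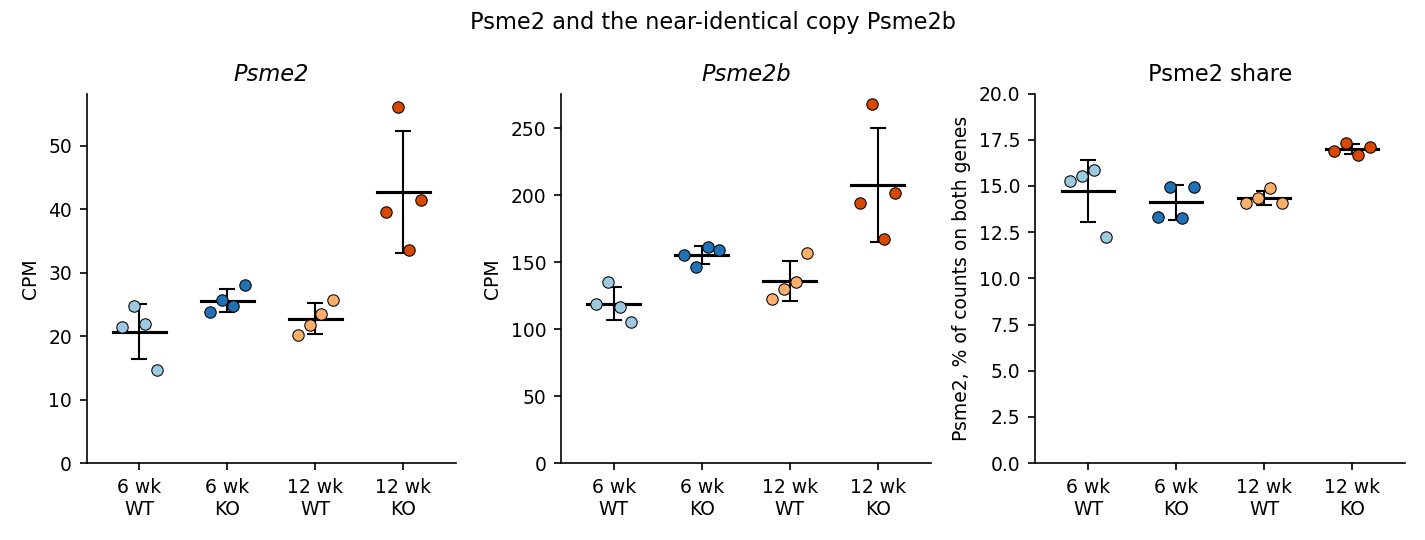
CPM of Psme2 and of Psme2b, and the percentage of the pair's counts assigned to Psme2, in each library (points), with group mean and SD over 4 libraries. Psme2 held between 12.2 and 17.3% of the counts in all 16 libraries, and the 12-week KO libraries were the highest in all 3 panels.

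Psmb8 encodes the immune subunit that takes the place of PSMB5, the chymotrypsin-like site. The 12-week KO libraries held 226, 353, 211 and 269 CPM and the WT libraries 188, 155, 144 and 193 CPM. All KO values were above all WT values, with replicate 2 far above the rest, and the log2 change was 0.64 ± 0.16 (adjusted p = 0.0384). It passed in 4 of the 8 refits that left out 1 library, and the call was lost without WT replicate 4 (adjusted p = 0.0926), WT replicate 5_6 (0.104), KO replicate 2 (0.102) or KO replicate 4 (0.0711). Without KO replicate 2 the log2 change was 0.48. Without WT libraries 3 and 8 it was 0.87 and the call held (adjusted p = 0.0382). At 6 weeks Psmb8 was at 213, 182, 176 and 191 CPM in KO and at 151, 159, 172 and 136 CPM in WT. Those groups did not overlap either, but the log2 change of 0.30 ± 0.16 missed the threshold (adjusted p = 0.76).

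The other 2 immune catalytic subunits were not called. Psmb9, which takes the place of PSMB6, lay at 91.6, 89.0, 62.8 and 74.8 CPM in 12-week KO and at 38.9, 63.1, 32.0 and 77.6 CPM in WT. The WT libraries spread widely, with replicate 8 inside the KO range, and the log2 change was 0.59 ± 0.26 (adjusted p = 0.3). Leaving out 1 library gave from 0.43 without WT replicate 5_6 (adjusted p = 0.477) to 0.87 without WT replicate 8 (adjusted p = 0.0976). At 6 weeks its levels were 62.6, 79.1, 67.7 and 60.7 CPM in KO against 44.1, 40.5, 65.5 and 42.1 CPM in WT, a log2 change of 0.49 ± 0.26 (adjusted p = 0.777). WT replicate 3 was the one library that entered the KO range.

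Psmb10, which takes the place of PSMB7, had overlapping groups at 12 weeks. Its KO libraries held 98.6, 96.5, 71.5 and 94.0 CPM and its WT libraries 79.6, 74.3, 136 and 128 CPM, so that the KO values lay within the WT range but for replicate 3. The log2 change was −0.21 ± 0.18 (adjusted p = 0.696), and it was −0.34 without WT replicate 4, −0.05 without WT replicate 5_6 and −0.08 without WT replicate 8. At 6 weeks it was 0.18 ± 0.18 (adjusted p = 1), from 114, 118, 103 and 124 CPM in KO and 95.5, 99.0, 114 and 95.0 CPM in WT.

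The 3 constitutive catalytic subunits gave no call at either age. Psmb5 was low throughout, at 17.0, 17.9, 18.6 and 14.3 CPM in 12-week KO and 12.4, 10.7, 15.1 and 19.1 CPM in WT. Its log2 change was 0.24 with a 95% interval from −0.30 to 0.78. Leaving out 1 library gave from 0.14 without WT replicate 4 to 0.44 without WT replicate 8. Psmb6, the caspase-like site, was at 163, 191, 166 and 202 CPM in KO and 172, 153, 154 and 141 CPM in WT, a log2 change of 0.22 with an interval from −0.05 to 0.50. Psmb7, the trypsin-like site, was at 32.0, 65.9, 39.4 and 49.9 CPM in KO and 65.0, 68.7, 57.7 and 54.9 CPM in WT, a log2 change of −0.39 with an interval from −0.79 to 0.00. All 3 pairs of groups overlapped, and the adjusted p-values were 0.813, 0.543 and 0.406. At 6 weeks, Psmb5 was at 14.0, 12.9, 16.1 and 15.4 CPM in KO and at 16.8, 13.02, 19.1 and 10.3 CPM in WT. Psmb6 was at 152, 119, 160 and 175 CPM in KO and at 135, 147, 144 and 106 CPM in WT. The 6-week values of Psmb7 were 66.6, 57.3, 71.4 and 51.5 CPM in KO and 50.1, 48.0, 51.2 and 44.9 CPM in WT. Of these only Psmb7 had separate groups at 6 weeks, with KO above WT (log2 change 0.34), which is opposite in sign to its 12-week value.

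Each immune subunit was also set against the constitutive subunit it replaces, within each library. The linear ratio of counts Psmb8/Psmb5 averaged 10.9 ± 2.20 (SD, n = 4) in WT and 13.2 ± 1.87 in KO at 6 weeks, and 12.3 ± 2.89 in WT and 15.8 ± 4.12 in KO at 12 weeks. Psmb9/Psmb6 averaged 0.363 ± 0.0780, 0.462 ± 0.141, 0.349 ± 0.163 and 0.444 ± 0.0888 in the same order, and Psmb10/Psmb7 averaged 2.08 ± 0.134, 1.91 ± 0.425, 1.75 ± 0.692 and 2.06 ± 0.703. In all 12 comparisons of these ratios, by genotype at each age and by age in each genotype, the groups overlapped. Two-sided exact permutation tests gave p from 0.171 to 0.886, and from 0.648 to 0.886 after adjustment over the 12, where 0.0286 is the smallest p that 4 against 4 allows, so that no single comparison could pass 0.05 after adjustment. The immune share of the counts of all 6 catalytic subunits was 60.7 ± 2.03% in WT and 62.2 ± 3.54% in KO at 6 weeks, and 58.4 ± 4.51% in WT and 63.8 ± 2.83% in KO at 12 weeks. These shares and ratios are of counts without correction for length, and merged exons ran from 899 bases (Psmb5) to 3660 (Psmb9). They therefore do not give the relative amounts of the subunits. Psmb5 also shares 64.9% of its 50-base coding stretches with other genes, so its counts are uncertain. At 12 weeks the log2 ratio of Psmb8 to Psmb5 was 0.35 higher in KO than in WT, with overlapping groups (exact permutation p = 0.229).

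**Figure D3:**
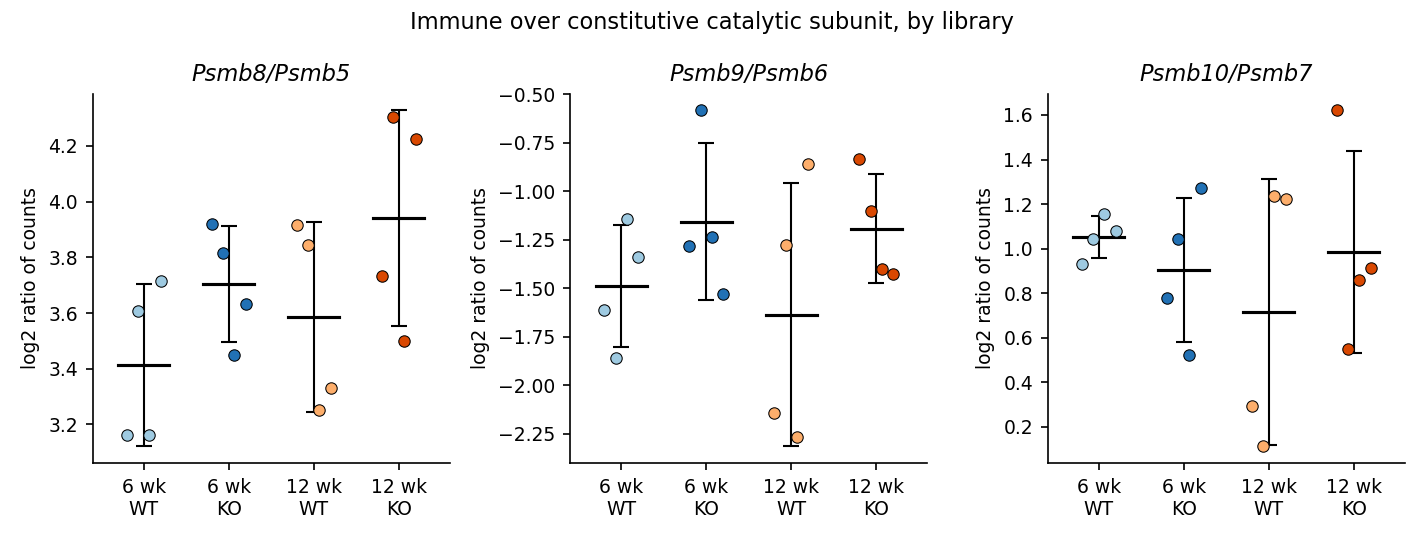
Log2 ratio of counts (each with 0.5 added) of Psmb8 to Psmb5, Psmb9 to Psmb6 and Psmb10 to Psmb7 in each library, by group. Points are libraries and whiskers are ± SD around the mean of 4; the vertical axes differ between panels, and in every panel each group overlaps the others it is compared with.

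The rest of the barrel and cap gave no call. Across the 31 core constitutive subunits, the alpha and beta rings without tissue-specific forms and the cap's ATPases and non-ATPases, the median log2 change between KO and WT was 0.10 at 6 weeks and 0.09 at 12 weeks, with a range at 12 weeks from −0.39 to 0.34. The median over all 17090 genes was −0.02 and −0.03. For the 5 interferon-induced members the medians were 0.30 and 0.64. Summed over the 5, levels were 368 ± 25.2 CPM in WT and 459 ± 27.3 in KO at 6 weeks, and 399 ± 59.1 in WT and 569 ± 93.5 in KO at 12 weeks. Summed over the other 43, they were 3273 ± 154, 3457 ± 205, 3757 ± 226 and 3729 ± 169 CPM.

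By role, the 6 cap ATPases (Psmc1 to Psmc6) had log2 changes from −0.18 to 0.18 at 12 weeks, with 2 above 0. The 11 non-ATPase subunits, which include the ubiquitin receptor Psmd4, the scaffold Psmd2 and the deubiquitinase Psmd14, ranged from −0.20 to 0.24 with 8 above 0. The 4 beta subunits without an immune form (Psmb1 to Psmb4) ranged from 0.06 to 0.34. Among the 8 alpha subunits, Psma3 was lower in every 12-week KO library (52.8 to 59.8 CPM) than in any WT library (60.4 to 71.0 CPM), but with a log2 change of −0.23 and adjusted p = 0.517. It was the only member with separate groups in the lower direction at 12 weeks, where 3.08% of all genes had such groups. In the higher direction there were 3, Psmb8, Psme1 and Psme2, where the share of all genes was 5.13%.

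**Figure D4:**
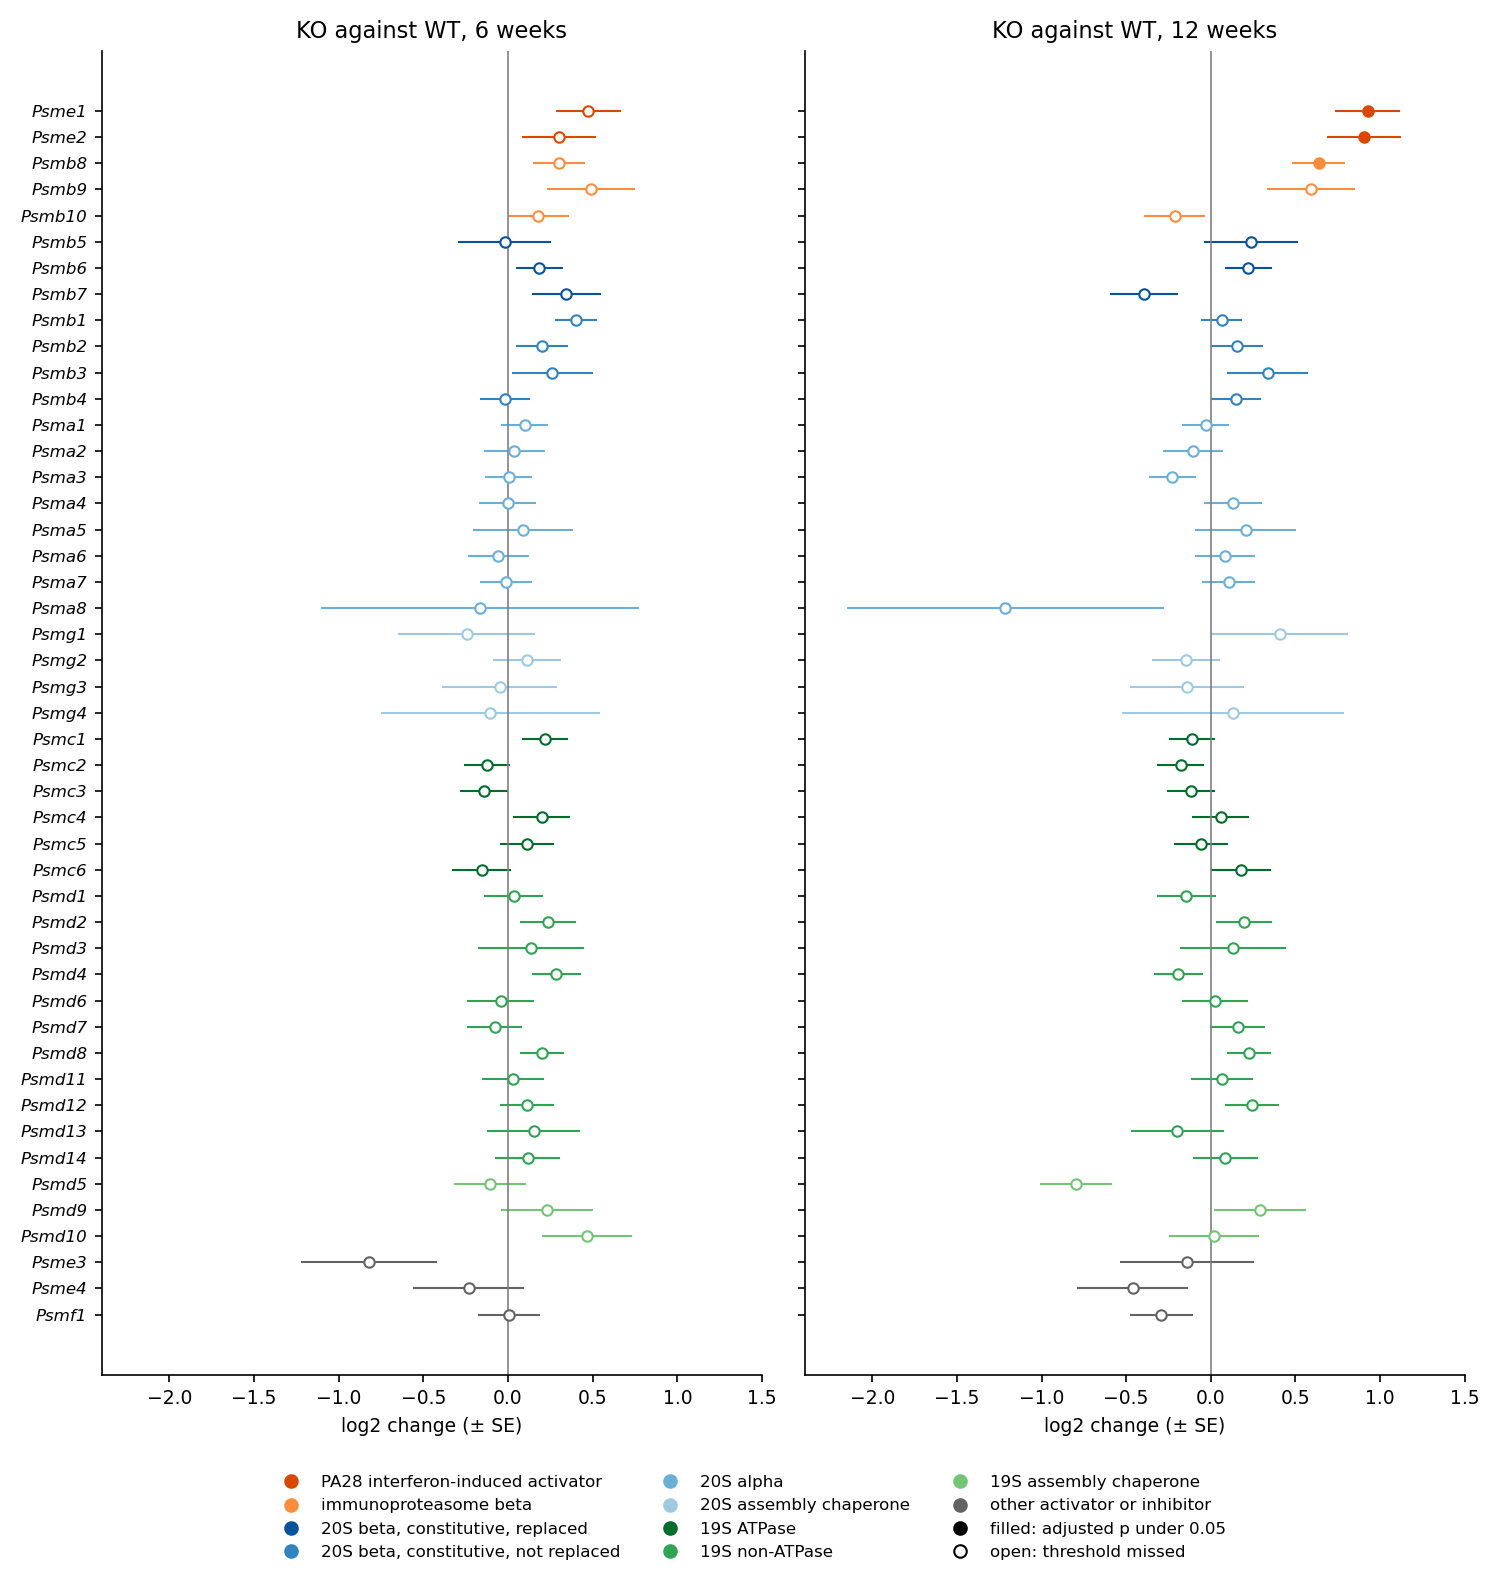
Log2 change of KO against WT (horizontal axis, ± SE from edgeR) for the 47 members tested, at 6 weeks on the left and 12 weeks on the right, coloured by role. Filled points passed an adjusted p of 0.05, which were Psme1, Psme2 and Psmb8 at 12 weeks; most constitutive subunits sit near 0 at both ages.

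The member nearest to a call in the lower direction was Psmd5, a chaperone that assists assembly of the cap's ATPase ring. Its 12-week KO libraries held 86.6, 116, 130 and 70.6 CPM and its WT libraries 249, 159, 172 and 124 CPM. WT replicate 8 lay below KO replicate 3, so the groups overlapped, and the log2 change was −0.80 ± 0.21 (adjusted p = 0.0578). DESeq2 called it (adjusted p = 0.00903), as did edgeR without the filter on low counts (adjusted p = 0.00428) and edgeR without WT replicate 8 (adjusted p = 0.0423). Without WT replicate 3, the highest library, the log2 change was −0.59 with adjusted p = 0.239. At 6 weeks Psmd5 was at 90.6, 131, 98.2 and 106 CPM in KO and at 136, 90.4, 106 and 118 CPM in WT, a log2 change of −0.10. The 12-week WT group had the highest mean of the 4, at 176 ± 52.8 CPM against 113 ± 19.1 in 6-week WT, 106 ± 17.5 in 6-week KO and 101 ± 27.1 in 12-week KO, and its range overlapped each of theirs. The second lowest 12-week change among members with a mean of at least 5 CPM was that of Psme4, the large single-chain activator PA200, at −0.46, but it rested on WT replicate 8 (78.3 CPM). Without that library Psme4 was at −0.06, and without WT libraries 3 and 8 at 0.07. Psma8, below that level, was at −1.21 ± 0.94 (adjusted p = 0.654).

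At 6 weeks no member was called by edgeR or by DESeq2, where edgeR called 0.872% of all genes, 0.796% higher and 0.0761% lower. Without adjustment, 2 members had p under 0.05 (Psmb1 and Psme1), against 7.31% of all genes. The largest positive log2 changes were 0.49 for Psmb9 and 0.47 for Psme1, and the largest negative ones were −0.82 ± 0.40 for Psme3, which encodes the nuclear PA28 gamma ring, and −0.25 for Psmg1, a chaperone of core assembly. Psme3 ranged from 12.6 to 45.7 CPM in WT and from 8.74 to 22.8 in KO (adjusted p = 0.725). The members whose KO libraries all lay above WT were Psmb3, Psmb7 and Psmb8, against 4.92% of all genes, and no member had KO entirely below WT, against 2.96%.

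The genotype effects at the 2 ages were compared directly by an interaction term. No member passed with edgeR or with DESeq2, 3 had an unadjusted p under 0.05 where 4.74% of all genes did, and edgeR called 0.00585% of all genes. Of the members, 23 of 47 had a difference above 0, against 49.7% of all genes. Psme1 had a difference of 0.45 ± 0.27 on the log2 scale, Psme2 of 0.60 ± 0.31 and Psmb8 of 0.34 ± 0.22, each with adjusted p = 1. The 3 members with an unadjusted p under 0.05 in edgeR were the catalytic subunit Psmb7 (−0.74), the ubiquitin receptor Psmd4 (−0.48) and the assembly chaperone Psmd5 (−0.69). The calls at 12 weeks and their absence at 6 weeks therefore do not show that the effect differs with age.

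Age was compared within each genotype. In KO, edgeR called no member and 0.0234% of all genes (0.00585% higher and 0.0176% lower), while 10 members had an unadjusted p under 0.05 against 8.8% of all genes. The 12-week KO libraries lay wholly above the 6-week ones for Psma3, Psma6, Psma7, Psmc6, Psme1 and Psme2 (3.05% of all genes) and wholly below for Psmb10 and Psmf1 (3.51% of all genes). Psmf1 encodes PI31, a protein first described as an inhibitor of the core. The largest changes were 0.72 ± 0.22 for Psme2 (adjusted p = 0.298) and 0.70 ± 0.18 for Psma6 (adjusted p = 0.222), and the lowest among members with a mean of at least 5 CPM were −0.61 ± 0.19 for Psmf1 and −0.40 ± 0.18 for Psmb10. Psma8, below that level, was at −1.70 ± 0.99 (adjusted p = 0.701). DESeq2 called 3 members, Psma6, Psma7 and Psme2, and also more of all genes than edgeR did, as counted in the last section.

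Within WT, edgeR again called no member and 0.0117% of all genes, and 7 members had an unadjusted p under 0.05 against 7.44% of all genes. Psma3, Psma6, Psmb1 and Psmb7 were wholly above their 6-week range at 12 weeks (2.31% of all genes), and no member was wholly below (3% of all genes). The largest changes were 0.67 ± 0.21 for Psmd5 and 0.61 ± 0.34 for Psmg3, and the lowest among members with a mean of at least 5 CPM were −0.31 for Psmf1 and −0.21 for Psme3, the last from −0.51 to 0.12 as 1 library was left out. Psma8 was at −0.65 ± 0.92 (adjusted p = 0.986). DESeq2 called Psma3 and Psmb1, and here too more of all genes than edgeR, as counted in the last section. The 5 interferon-induced members had log2 changes between −0.01 and 0.13 with age in WT.

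Psma3 and Psma6, both of the alpha ring, were the members whose ages were separate in both genotypes. Psma6 was at 56.3, 45.9, 56.5 and 34.2 CPM in 6-week WT and at 74.7, 68.4, 70.2 and 66.5 in 12-week WT. In KO it was at 41.2, 40.2, 56.3 and 47.8 CPM at 6 weeks and at 65.5, 82.8, 66.8 and 81.1 at 12 weeks. Psma3 ranged from 42.4 to 52.2 CPM in WT and from 42.3 to 52.1 in KO at 6 weeks, and from 60.4 to 71.0 and from 52.8 to 59.8 at 12 weeks. The 12-week libraries of both genes were above every 6-week library of their genotype. Across all 47 members, 36 had a log2 change with age above 0 in each genotype, with a median of 0.16 in KO and 0.15 in WT, while 48.2 and 48.6% of all genes lay above 0. The age groups differ in their balance of labelled sexes, for which the model has a term.

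The lists of proteasome partners and of ubiquitin genes gave no call in edgeR. Of 20 partners and shuttle factors, which include the core maturation factor Pomp, the ubiquitin receptor Adrm1, the transcription factor Nfe2l1 and the unfoldase Vcp, 19 were tested and none was called by edgeR in any comparison. Their median log2 change between KO and WT was 0.03 at 6 weeks and −0.15 at 12 weeks. The 6 genes of ubiquitin and its activating enzymes likewise had no call, with medians of 0.08 and −0.21.

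Several genes of the interferon pathway, which induces the immune subunits, rose in KO. In edgeR, Irf7, a transcription factor of the type I interferon response, was called higher at 6 weeks (log2 change 2.77) and at 12 weeks (5.37). Stat2 (1.60) and Irf9 (0.92), which act in one complex downstream of the type I receptor, were called higher at 12 weeks. Irf1, which drives Psmb9 and Tap1 after interferon gamma, had log2 changes of 0.07 and 0.63 and missed the threshold at both ages (adjusted p = 1 and 0.108). Of 5 genes for conjugation of the ubiquitin-like ISG15, Isg15 (2.76) and Usp18 (2.92) rose at 6 weeks, and Isg15 (2.88), Usp18 (3.31) and Ube2l6 (1.42) rose at 12 weeks. KO replicate 2 of 12 weeks had the highest Psmb8, Psme2 and Irf7 (177 CPM) of all libraries. Psme1 (101 CPM) and Psmb9 (91.6 CPM) were highest in KO replicate 1 of that age, and Psmb10 (136 CPM) in WT replicate 5_6. Association between these genes across libraries was not tested.

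Of 12 genes for peptide supply to MHC class I, edgeR called 3 higher at 6 weeks, B2m (0.98), H2-K1 (1.73) and H2-D1 (1.79), and at 12 weeks those 3 (1.43, 2.38 and 2.73) and Tap1 (1.76). The peptide transporter chain Tap2 had a log2 change of 0.81 at 12 weeks (adjusted p = 0.0727), Tapbp 0.28 (adjusted p = 0.396) and the class I transactivator Nlrc5 2.69 ± 1.55 (adjusted p = 0.48). Tap1 was at 93.0, 99.3, 62.0 and 58.0 CPM in 12-week KO and at 14.2, 21.2, 22.7 and 35.0 CPM in 12-week WT. Those groups were separate, while those of Psmb9, transcribed in the opposite direction from the same promoter region, overlapped; the difference between these genes was not tested. The 300-base RefSeq promoter windows of Psmb9 and Tap1 share 275 bases on opposite strands (GRCm38.p6, chr17:34187306-34187580), and in GENCODE vM21 the exons of these genes overlap by 212 bases.

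Promoter windows were searched, on both strands, for the core of the interferon-stimulated response element (GAAA, any 2 bases, GAAA) and for the gamma-activated site (TTCNNNGAA), in windows of 250 bases before to 50 after the RefSeq start. Windows were found for 40 of the 48 members. The 2 matches in members called at 12 weeks are shown here as 30-base stretches of GRCm38.p6 on the gene's strand, with the match in capitals; the count files use another build, GRCm39.
Psme1 response element core, chr14:55578493-55578522: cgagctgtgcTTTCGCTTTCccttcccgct
Psmb8 gamma-activated site, chr17:34198088-34198117: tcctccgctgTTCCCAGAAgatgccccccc
The Psme1 match lies at bases 10 to 19 after the start, on the opposite strand, and the Psmb8 match ends 89 bases before the start. The response element core was found in 5 of the 43 member windows (Psmb3, Psmd4, Psmd9, Psme1 and Psmg4), or 11.6%, against 3.44% of all 32851 windows. The gamma-activated site was found in 3 (Psmb8, Psmd2 and Psmg1), or 6.98%, against 8.3% of all windows. Only 1 member of each list of matches was called at 12 weeks, and neither motif was found in the windows of Psme2, Psmb9 or Psmb10. The core of the antioxidant response element (TGACNNNGC) was found in 6 windows (14%, against 12.4% of all), those of Psmb5, Psmb6, Psmc6, Psmd12, Psmd9 and Psme4. Each match is a run of letters in the reference and was not measured as a site.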

How the data were processed

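Raw read counts per gene were deposited by the authors, 1 table for each of the 16 libraries. Per the submitters' processing notes, FastQC 0.11.9, cutadapt 2.10, TopHat, SAMtools 1.10, Picard 2.13.2 and HTSeq 0.11.0 were used with the GRCm39 build; settings and strandedness are not stated there. Groups, ages and sexes were taken from the labels. Counts were fitted with edgeR 4.0.16 (R 4.3.3): 17090 genes passed a filter for expression with a minimum count of 10, sizes were scaled by the trimmed mean of M values (TMM), and a quasi-likelihood model had group and labelled sex as terms over all 16 libraries, with a threshold of 0.05 on Benjamini-Hochberg adjusted p over all genes tested. The biological coefficient of variation was 0.649, and the script was checked on simulated data. Ratios used counts with 0.5 added and exact permutation tests. DESeq2 1.42.0, another scaling (RLE), no filter, no sex term, a replicate block, the compared groups alone and each library left out were alternatives. Values per kilobase used merged exon lengths of GENCODE vM21, sequences that annotation or RefSeq (GRCm38.p6). Named in full were the 5 interferon-induced members, Psmb5, Psmb6, Psmb7 and any member past the threshold; of the others, the 2 highest and lowest changes per comparison among members with a mean of at least 5 CPM were named, and Psmd5, Psma3, Psma6 and Psme3 were given values after these were seen. Some results on the interferon pathway list are not reported here. The members and lists were chosen with earlier results of these data known. Reads carry no molecular identifiers, so duplicates are counted as reads.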

Additional observations from a re-analysis of the deposited data

Results flagged for a closer look

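Of 72 groups of 4 libraries examined across 18 members and ratios, 2 held 1 library far from the other 3, and chance marks about 1 in 20 such groups. Psmb9 in 6-week WT replicate 3 stood at 65.5 CPM against 40.5 to 44.1 CPM in the other 3, inside the 6-week KO range. Psmb10 in 12-week KO replicate 3 stood at 71.5 CPM against 94.0 to 98.6 CPM in the other 3.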

How the results depend on the processing

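The count of 3 members called for KO against WT at 12 weeks was the value that moved most. It was 0 with a replicate block in place of sex, 1 with the compared groups fitted alone (Psme1), 1 without the 12-week WT libraries 3 and 8 (Psmb8; chosen after seeing the data), and from 1 to 4 when 1 library was left out. Over all genes those settings called 181, 204 and 307 genes. The replicate block is not a like-for-like alternative. Numbers 5_6 and 8 occur in 1 library each, both 12-week WT, so the block terms take up these libraries. The 12-week WT level then rests on replicates 3 and 4. With the block, Psme1 had a log2 change of 1.10 (adjusted p = 0.0542), Psmb8 0.55 (0.281) and Psme2 0.91 (0.208); the deviations of same-numbered libraries correlated at −0.0246 to 0.0623, and not every library correlated best with its own number, so the numbers were not taken to pair samples. The block gave 0 members in the other 4 comparisons too. With DESeq2 the count was 4 at 12 weeks, 3 for age in KO and 2 for age in WT, where edgeR gave 3, 0 and 0, and over all genes DESeq2 called 1158, 249 and 152. Fitted alone, Psmb8 had adjusted p = 0.207 and Psme2 0.138; without the filter, Psme2 had 0.117. The cause of these differences was not tested. RLE scaling, no sex term and summing the near-identical copies left the same 3 members called. Without the filter the count was also 3, but of Psmb8, Psme1 and Psmd5, the last lower in KO. Over its 16 alternatives Psme1 passed in 14, Psmb8 in 10 and Psme2 in 6, and no sign changed among the 3. Psmb10, at −0.21 for KO against WT at 12 weeks, was 0.20 with the replicate block. In that fit WT replicates 5_6 and 8 (136 and 128 CPM) had no weight on the change. Psmb10 did not pass in any setting. Low counts limit Psma8, with 844 reads over all libraries, and Psmb5, with 2739.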
